A study of Mus musculus with 4 samples.

Results

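Potassium channel genes were described in C3H10T1/2 cells, an established mouse mesenchymal line, that had been exposed for 6 hours to recombinant human BMP3 at 100 ng/ml or had been left without it. BMP3 is a secreted protein of the TGF-beta superfamily. There were 2 BMP3 cultures and 2 control cultures, called biological replicates by the labels, and each gave total RNA for 1 Affymetrix 3' expression array. The labels do not say whether a replicate number stands for a shared day or passage, and 1 cell line at 1 dose and 1 time limits what the comparison covers. The genes were all those whose symbol in the platform annotation begins with Kcn and a further letter. The annotation gave 84 such symbols on 167 probe sets, out of 18193 genes in all, and each gene was read from the brightest of its probe sets, averaged over the 4 arrays. These genes were proposed because Kcnn4 was higher in the BMP3 arrays, so every BMP3 against control value of these genes is given as a description. Standard errors and the looser rule used further on describe size and spread, and no support is drawn from them.

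Potassium channels let potassium leave the cell along its gradient and so hold the membrane potential negative. In non-excitable cells such as fibroblasts and mesenchymal progenitors, that potential sets the electrical drive for calcium entry and takes part in volume control and in the cell cycle. The family falls into channels opened by voltage, channels opened by calcium or sodium inside the cell, inward rectifiers, two-pore-domain leak channels, and auxiliary subunits that change the gating or the surface delivery of the pore.

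Of the 84 symbols, 3 reached a mean log2 intensity of 6 or more (3.57%), which is the level used here for a gene with clear signal, while 9185 of all 18193 genes did (50.5%). The value of 6 is a chosen level and not a detection call, and the brightness of one probe set against another also depends on its probes. The 3 symbols were Kcnn4, Kcnk2 and Kcnq1ot1. Kcnn4 encodes the intermediate-conductance channel opened by a rise in intracellular calcium. Kcnk2 encodes a two-pore-domain leak channel opened by membrane stretch and by arachidonic acid. Kcnq1ot1 is not a channel gene but a long non-coding RNA, read from the opposite strand of Kcnq1, that silences neighbouring imprinted genes in cis. Both channel genes among the 3 had higher intensities in the BMP3 arrays, and the non-coding RNA had lower ones.

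The windows before the starts of Kcnn4 and Kcnk2 are shown because these were the channel genes whose intensities were higher together. They are the 250 bases before a start of the gene, 5′ to 3′ on the gene's strand, from RefSeq's annotation of GRCm38.p6. Capitals mark matches, on either strand, to any of 7 motifs, namely TGANTCA for AP-1, TGACGTCA for the cyclic AMP element, GGCGCC as well as GTCTAGAC for SMADs, CACGTG for the E-box, GGGCGG for the GC-box, with TATAAA for the TATA box. The Kcnn4 window lies at chr7:24370013-24370262 on the plus strand. The table gave 4 windows for Kcnk2 on the minus strand of chromosome 1, and the 2 printed ones, chr1:189344193-189344442 and chr1:189343708-189343957, were those with any match.
Kcnn4: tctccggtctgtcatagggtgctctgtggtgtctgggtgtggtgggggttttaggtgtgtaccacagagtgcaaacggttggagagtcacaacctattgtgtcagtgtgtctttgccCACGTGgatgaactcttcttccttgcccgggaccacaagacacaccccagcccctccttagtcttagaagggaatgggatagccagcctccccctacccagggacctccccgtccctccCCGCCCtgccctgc
Kcnk2, window 2: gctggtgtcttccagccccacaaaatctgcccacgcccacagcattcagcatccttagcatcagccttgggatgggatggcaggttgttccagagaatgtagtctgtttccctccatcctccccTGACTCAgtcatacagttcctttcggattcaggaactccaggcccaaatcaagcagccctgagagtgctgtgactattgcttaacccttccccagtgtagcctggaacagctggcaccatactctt
Kcnk2, window 3: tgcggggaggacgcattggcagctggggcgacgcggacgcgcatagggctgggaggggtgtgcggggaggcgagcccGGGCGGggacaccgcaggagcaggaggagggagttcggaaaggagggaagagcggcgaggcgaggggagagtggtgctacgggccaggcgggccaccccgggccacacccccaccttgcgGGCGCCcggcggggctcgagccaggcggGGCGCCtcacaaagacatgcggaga

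The Kcnn4 window held 1 E-box, from 133 to 128 bases before the start, and 1 GC-box on the opposite strand, from 14 to 9 bases before it. Of 32851 windows in the table, 6.02% held that E-box and 32.7% the GC-box. Window 2 of Kcnk2 held 1 AP-1 match, 126 to 120 bases before its start, as did 6.75% of all windows. Window 3 held 2 copies of GGCGCC and 1 GC-box, and 9.59% of all windows held GGCGCC. It had 27 CpG dinucleotides and 74.4% G or C, against 2 CpG and 53.2% in window 2, and 6 CpG and 58.8% in the Kcnn4 window. Windows 1 and 4 of Kcnk2, not printed, had 5 and 28 CpG, with 42.4% and 70.4% G or C. The GC-box was the only one of the 7 motifs found both in the Kcnn4 window and in a Kcnk2 window. A match describes letters only, and no match says only that these letters are not in this window. Windows were found for 64 of the 84 symbols. Over their 89 windows, the GC-box stood in 44.9%, GGCGCC in 13.5%, the E-box in 5.62%, the AP-1 motif in 4.49% and TATAAA in 3.37%. The cyclic AMP element and GTCTAGAC stood in 0%. Over all windows TATAAA stood in 12.4%, the cyclic AMP element in 1.55% and GTCTAGAC in 0.167%. The median share of G or C was 58.8% in the 89 windows and 52.4% in all windows.

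Kcnn4 had log2 intensities of 9.06 and 8.99 in BMP3 replicates 1 and 2, against 8.13 and 8.05 in control replicates 1 and 2. Both BMP3 arrays lay above both control arrays, and the gap between the groups was many times the gap between replicates. The group means were 9.03 ± 0.05 in BMP3 arrays and 8.09 ± 0.06 in control arrays (SD, n = 2 each), a log2 difference of 0.93 ± 0.06 (limma standard error, BMP3 minus control here and in all differences that follow). On the linear scale this was 1.91-fold higher. A second probe set of Kcnn4 was dimmer, at 4.96 and 4.95 in BMP3 arrays, against 4.70 and 4.78 in control arrays, with a difference of 0.21 ± 0.05. It lay the same way, with groups that did not overlap, but at a level under 6 on every array. The mean of the 2 probe sets had a difference of 0.57, so the size of the Kcnn4 difference depends on which probe set is read.

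Kcnk2, with 1 probe set, stood at 8.15 and 7.79 in BMP3 replicates 1 and 2, against 6.21 and 6.79 in control replicates 1 and 2. The groups did not overlap, and each BMP3 array exceeded the higher control array by more than the control arrays differed from each other. The means were 7.97 ± 0.25 in BMP3 arrays and 6.50 ± 0.41 in control arrays (SD, n = 2 each). The difference was 1.47 ± 0.27, or 2.77-fold higher on the linear scale. With single arrays left out it ran from 1.18 without control replicate 1 to 1.76 without control replicate 2, whereas that of Kcnn4 ran from 0.89 to 0.97. Of the 9185 genes with a mean of 6 or more, 19 had a difference at least as high as that of Kcnk2 (0.207%). For Kcnn4 it was 97 (1.06%), both counts including the gene itself. Kcnn4 was chosen from this contrast, so its place follows from that choice and nothing is read from either share.

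**Figure D1:**
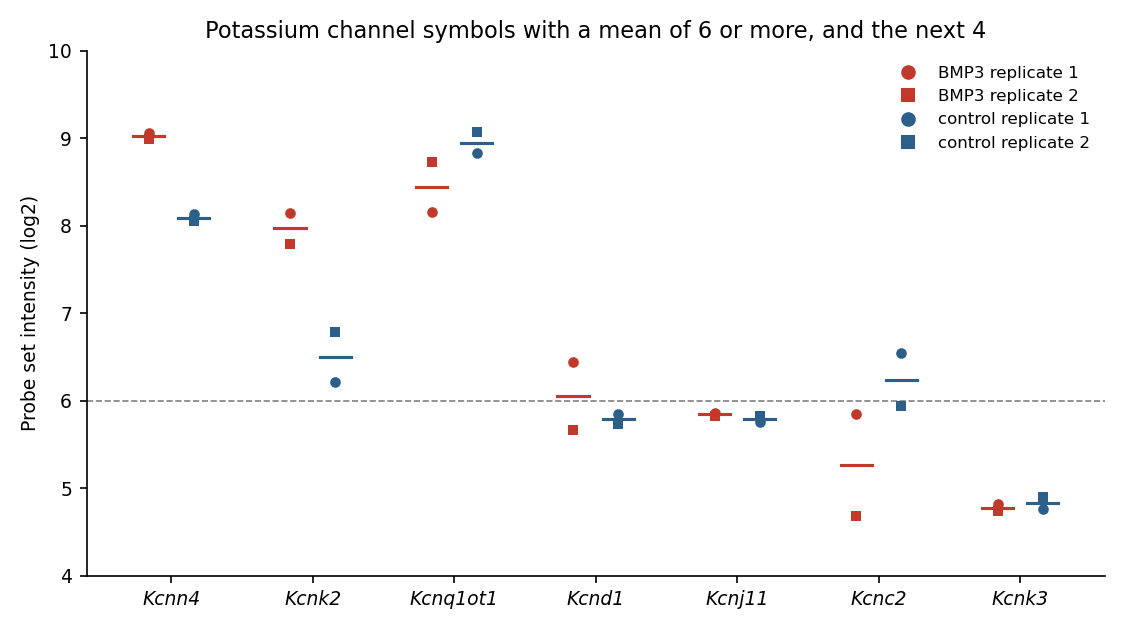
Log2 intensity of the brightest probe set of 7 potassium channel symbols in each BMP3 array (red, left of each pair) and control array (blue, right), with circles for replicate 1, squares for replicate 2, bars for group means and a dashed line at 6. The BMP3 points of Kcnn4 and Kcnk2 lie above their control points, those of Kcnq1ot1 and Kcnc2 lie below, and Kcnd1 is above 6 in BMP3 replicate 1 alone.

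Kcnq1ot1 had 8.15 and 8.72 in BMP3 replicates 1 and 2, against 8.83 and 9.07 in control replicates 1 and 2. The BMP3 arrays lay below the control arrays, BMP3 replicate 2 only narrowly. The means were 8.44 ± 0.40 in BMP3 arrays and 8.95 ± 0.17 in control arrays (SD, n = 2 each), a difference of -0.51 ± 0.25. The RNA had 6 probe sets, of which 3 reached a mean of 6. The next brightest of these read 7.87 and 8.83 in BMP3 arrays, against 8.66 and 8.72 in control arrays. The last of the 3 read 6.32 and 7.64 in BMP3 arrays, against 7.09 and 7.37 in control arrays. In both, BMP3 replicate 1 was the lowest array and BMP3 replicate 2 the highest, so the groups overlapped. The differences of the 3 probe sets were -0.51, -0.34 and -0.25. Without BMP3 replicate 1 the difference of the brightest one was -0.23, and without BMP3 replicate 2 it was -0.80. Kcnq1 itself, the voltage-gated channel gene on the other strand, averaged 2.28 in BMP3 arrays and 2.27 in control arrays, at the low end of the scale. Cdkn1c, a cyclin-dependent kinase inhibitor gene that Kcnq1ot1 is known to silence on the paternal chromosome, averaged 2.13 in BMP3 arrays and 2.15 in control arrays. These values also lie at the low end of the scale, where the intensity may not follow the transcript, so no lack of change is read from them. Cdkn1c was 1 of 10 genes of the imprinted domain looked up after these values were seen, Kcnq1ot1 and Kcnq1 included. Besides Kcnq1ot1 only Cd81, Osbpl5 and Tssc4 among them reached 6, with differences from 0.05 to 0.11.

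**Figure D2:**
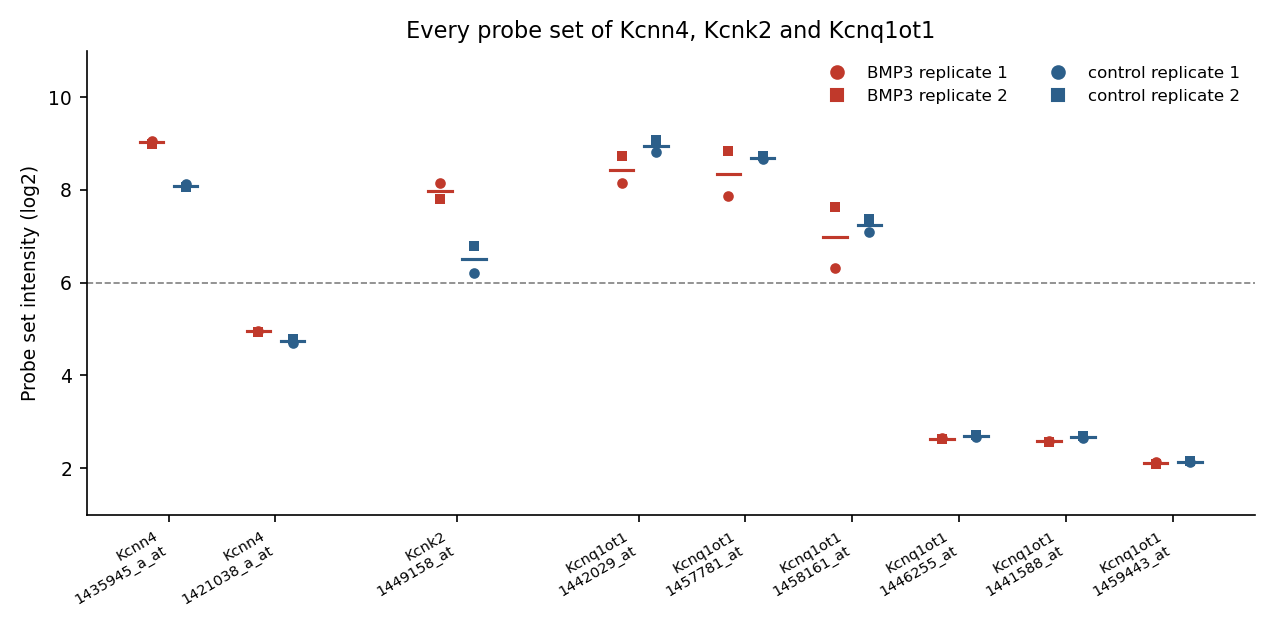
Log2 intensity of every probe set of Kcnn4 (2), Kcnk2 (1) and Kcnq1ot1 (6), in BMP3 arrays (red, left) and control arrays (blue, right), with circles for replicate 1, squares for replicate 2, bars for group means and a dashed line at 6. Both Kcnn4 probe sets are higher in BMP3 arrays, by 0.93 and 0.21, while in the dimmer 2 of the 3 Kcnq1ot1 probe sets above the line the BMP3 replicates lie on either side of the control arrays.

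Across the whole table, limma called 0 of 45037 probe sets at an adjusted p of 0.05 (0%; smallest adjusted p = 0.213), while 3779 had an unadjusted p under 0.05 (8.39%). A looser rule asked for an unadjusted p under 0.05 and a fold of at least 1.5. Of the 84 symbols, 2 were past it in the higher direction, Kcnn4 and Kcnk2, and 0 in the lower, against 1.18% higher and 1.65% lower of all genes. Among genes with a mean of 6 or more, where both lie, the shares were 2% higher and 2.83% lower. Since Kcnn4 was chosen from this contrast, nothing is read from that count. Over all probe sets the rule took 364 higher (0.808%) and 901 lower (2%). With BMP3 replicate 1 left out these counts were 870 and 1407, and with BMP3 replicate 2 left out the higher one was 625. The groups did not overlap for any of the 3 symbols with a mean of 6 or more. The same held for 47.8% of all genes at that level (26.1% with BMP3 above and 21.7% with BMP3 below). Of the 84 symbols, 21 had groups that did not overlap (25%), against 37.3% of all genes, but most of the symbols were dim. Under a mean of 6 it was 18 of 81 symbols (22.2%), against 26.6% of all genes at that level.

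Of the 4 next genes by level, Kcnd1, Kcnc2 and Kcnj11 had means between 5 and 6, and Kcnk3 had a mean of 4.80. Kcnd1, a Shal-type voltage-gated pore of transient currents, had 6.45 and 5.66 in BMP3 replicates 1 and 2, against 5.84 and 5.73 in control replicates 1 and 2. One BMP3 array was the highest of the 4 and the other the lowest. Its difference was 0.27 ± 0.31. Leaving out BMP3 replicate 2 gave 0.66, and leaving out BMP3 replicate 1 gave -0.12. Kcnc2, a Shaw-type voltage-gated pore best known from fast-spiking neurons, had 5.85 and 4.68 in BMP3 replicates 1 and 2, against 6.54 and 5.94 in control replicates 1 and 2. The BMP3 arrays lay below both control arrays, but BMP3 replicate 1 by little. Its difference was -0.97 ± 0.52, and it ran from -1.56 without BMP3 replicate 1 to -0.39 without BMP3 replicate 2.

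Kcnj11, the pore of the ATP-sensitive channel, had 5.86 and 5.83 in BMP3 replicates 1 and 2, against 5.76 and 5.82 in control replicates 1 and 2. The difference was 0.05 ± 0.04. Its sulfonylurea receptor partners Abcc8 and Abcc9, looked up for this reason, averaged 2.39 and 2.37 in BMP3 arrays, against 2.40 and 2.39 in control arrays. Kcnk3, an acid-sensitive relative of Kcnk2, had 4.82 and 4.73 in BMP3 arrays, against 4.76 and 4.90 in control arrays, and the groups overlapped. Nothing separates Kcnd1 at a mean of 5.92 from the level of 6 beyond its spread, and without BMP3 replicate 2 both Kcnd1 and Kcnc2 averaged 6 or more.

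By class, the calcium- or sodium-activated channels had 8 genes and the two-pore-domain channels 12, each with 1 gene at 6 or more. The 31 voltage-gated pore genes had means from 1.27 to 5.92 (median 2.68). The 15 inward rectifier genes ran from 1.81 to 5.82 (median 2.62), and the 15 auxiliary subunit genes from 1.64 to 4.77 (median 2.60). Of those 3 classes, 0 genes reached 6. The remaining 3 symbols were non-coding RNAs, and apart from Kcnq1ot1 they averaged 2.15 (Kcnmb4os2) and 2.04 (Kcnmb4os1). In all, 61 of the 84 symbols had a mean under 3 (72.6%), where 36% of all genes lay.

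**Figure D3:**
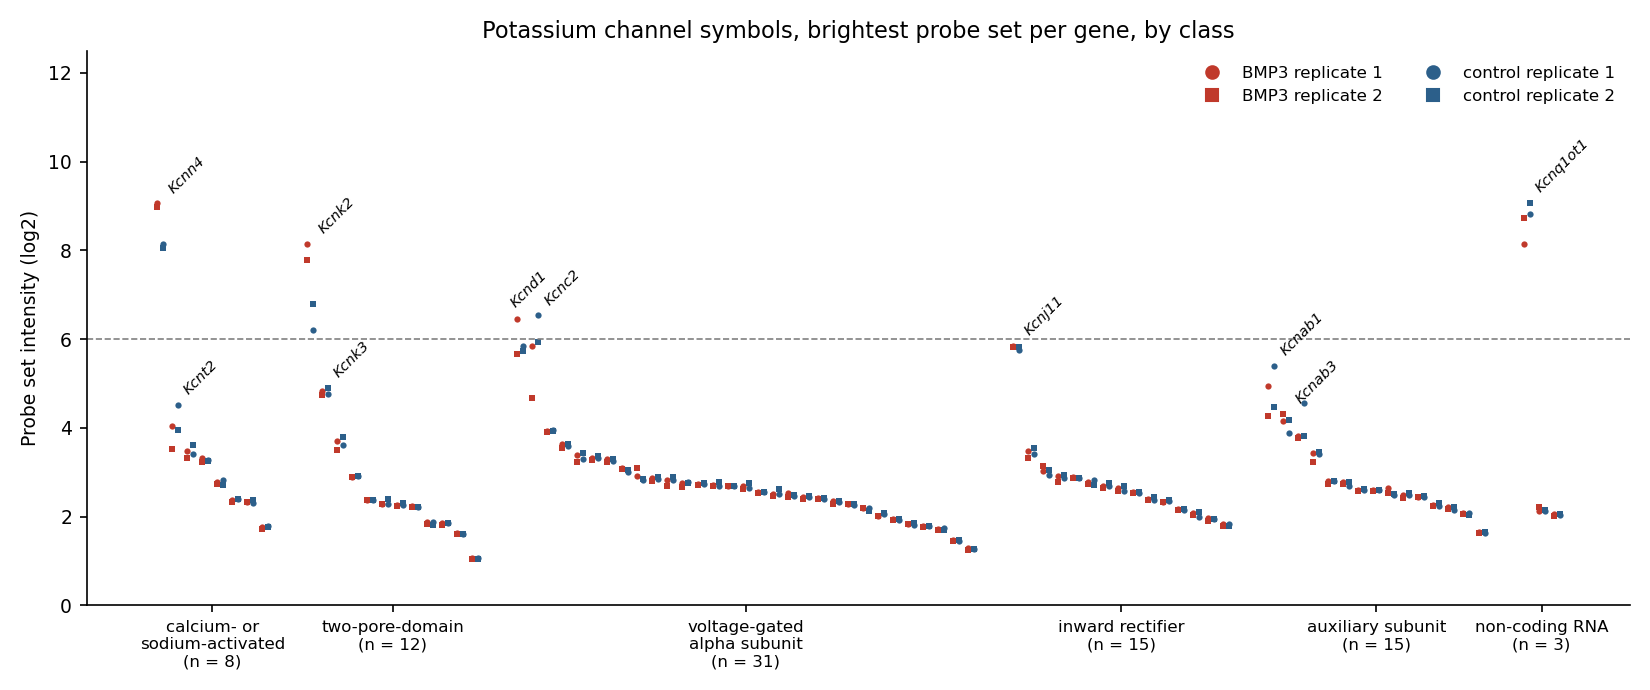
Log2 intensity of the brightest probe set of each of the 84 symbols, sorted by mean within 6 classes, with BMP3 arrays in red and control arrays in blue, circles for replicate 1, squares for replicate 2 and a dashed line at 6. Symbols with a mean of 4 or more are named; Kcnn4, Kcnk2 and Kcnq1ot1 stand above the line on every array, and most others lie near 2 to 3 with BMP3 and control points together.

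The relatives of Kcnn4 were dim. The small-conductance genes, which like Kcnn4 are opened by calcium, averaged 2.76 (Kcnn1), 3.28 (Kcnn2) and 1.74 (Kcnn3) in BMP3 arrays, against 2.77, 3.27 and 1.78 in control arrays. Kcnma1, the large-conductance calcium- and voltage-activated pore whose currents are known from human mesenchymal stem cells, had 5 probe sets with means over the 4 arrays from 2.14 to 3.46. Its brightest one read 3.47 and 3.33 in BMP3 arrays, against 3.41 and 3.62 in control arrays, with a difference of -0.12 ± 0.11. The beta subunits of that channel averaged 2.59 (Kcnmb2), 2.25 (Kcnmb4) and 2.19 (Kcnmb1) in BMP3 arrays, against 2.61, 2.27 and 2.18 in control arrays. At such levels a difference near 0 says little, because the intensity may not follow the transcript. In bulk RNA, fewer cells with a transcript and less of it per cell cannot be told apart.

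The 81 symbols under 6 moved little, as did most genes at that level. Differences in either direction were under 0.1 for 7680 and under 0.2 for 8221 of the 9008 genes under 6. Among the 81 symbols, 71 moved by less than 0.1 and 75 by less than 0.2. Besides Kcnc2 and Kcnd1, those past 0.2 were Kcnt2 (-0.46 ± 0.31), Kcnip3 (-0.40 ± 0.29), Kcnab1 (-0.34 ± 0.45) and Kcnab3 (0.22 ± 0.13), named after their values were seen. They encode a sodium-activated pore, a calcium-binding partner of Shal-type channels and 2 beta subunits of voltage-gated channels. Kcnip3 had 3.81 and 3.78 in BMP3 arrays, against 4.56 and 3.83 in control arrays, so control replicate 1 alone stood high. Of the 81 symbols, 24 were higher and 57 lower (29.6% higher), as were 31.2% of all genes under 6. That split followed the scaling of the arrays. It was 49.4% higher after quantile normalization, 55.6% after cyclic loess and 74.1% after median centring, where all genes under 6 gave 50.2%, 51.6% and 75%. The split of the dim symbols therefore has no settled direction. Kcnn4 and Kcnk2 stayed higher and Kcnq1ot1 lower under each of these scalings. Their differences were larger than the shifts the scalings made, so nothing is read from that.

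**Figure D4:**
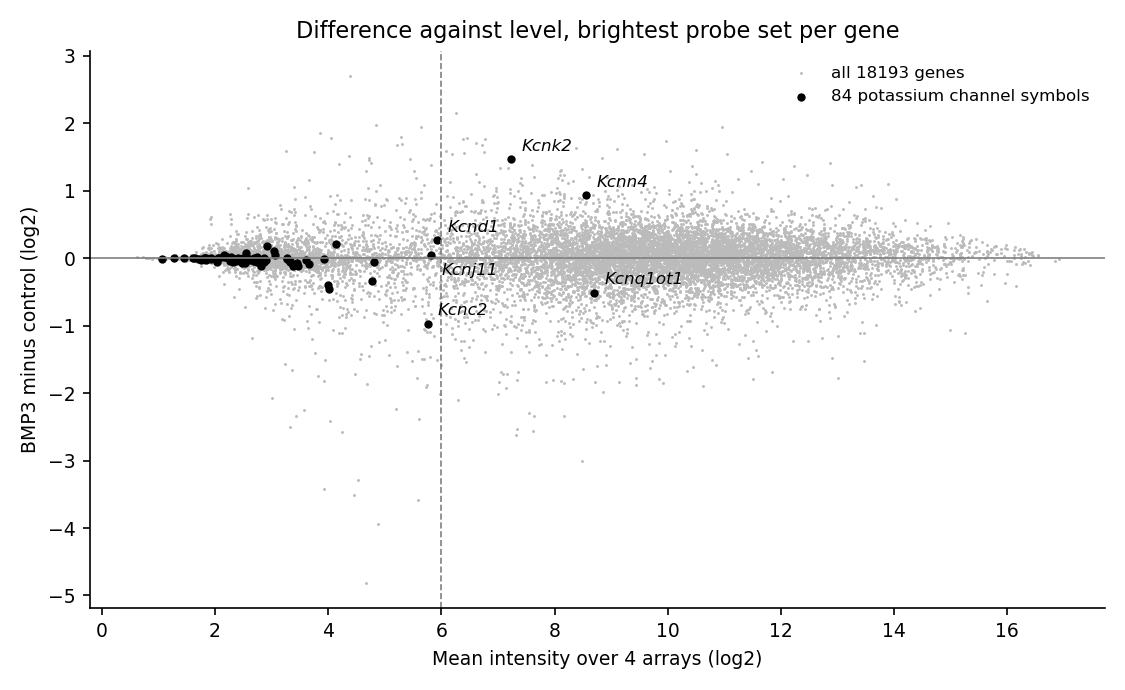
BMP3 minus control difference (log2) against the mean intensity over the 4 arrays (log2) for the brightest probe set of all 18193 genes (grey) and of the 84 potassium channel symbols (black), with a dashed line at 6. Most black points lie at low intensity close to 0, while Kcnk2 at 1.47 and Kcnn4 at 0.93 lie in the upper part of the grey cloud. Among genes with a mean of 6 or more, 19 had a difference at least as high as Kcnk2 and 97 as Kcnn4, each counting itself. Kcnn4 was chosen for its difference, so its place there follows from the choice.

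Potassium channels act with other transport proteins, and 8 related lists were chosen by function. Of 128 genes listed, 106 had a probe set of their own and 62 a mean of 6 or more. In the limma fit 0 of the 106 passed an adjusted p of 0.05, and 1 was past the looser rule, higher, against 1.18% of all genes. That gene was Fxyd5, a small regulator of the sodium-potassium pump, at 8.91 and 9.28 in BMP3 arrays, against 8.23 and 8.56 in control arrays (difference 0.70 ± 0.20). Of the 62, 45 were higher and 17 lower, with a median difference of 0.12. All genes with a mean of 6 or more had 53.3% higher and a median of 0.02.

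The list of calmodulin and regulators of the Kcnn4 channel held 9 genes, of which 5 had a probe set of their own. No calmodulin gene was among the 5. Of these, 2 were higher and 3 lower (median -0.04, and 0.00 with 3 higher after median centring). From work on T cells, Nme2 is known as a histidine kinase that activates the channel, Mtmr6 as a phosphatase that inhibits it and Trim27 as an E3 ligase that acts against its activation. Nme2 had a difference of 0.09 ± 0.04, Trim27 0.35 ± 0.28 and Mtmr6 -0.09 ± 0.11. Potassium channel partners outside the symbol rule had 4 higher and 2 lower of 6 (median 0.03). After quantile normalization, and also after median centring, 5 were higher and 1 lower. The ubiquitin ligase gene Nedd4 had 0.04 ± 0.09, and the scaffold genes Dlg1 and Dlg4 had -0.05 ± 0.08 and 0.32 ± 0.09.

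Calcium entry channels had 8 higher and 3 lower of 11 (median 0.16). Piezo1, a stretch-gated cation channel, read 11.32 and 11.30 in BMP3 arrays, against 10.76 and 10.82 in control arrays, with groups apart and a difference of 0.52 ± 0.04. Trpm7, a cation channel joined to a kinase, had 12.31 and 11.87 in BMP3 arrays, against 12.53 and 12.46 in control arrays (-0.40 ± 0.18), and Cacna2d1, an auxiliary subunit of voltage-gated calcium channels, had 0.02 ± 0.09. Genes of calcium release and removal had 4 higher and 1 lower of 5 (median 0.15), with Atp2a2 at 0.38 ± 0.28, Atp2b1 at 0.11 ± 0.19 and Itpr3 at 0.44 ± 0.15. They encode a pump into the endoplasmic reticulum, a pump out of the cell and a release channel of the reticulum.

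Sodium and potassium pumps and cotransporters had 6 higher and 4 lower of 10 (median 0.13). Their brightest genes were Wnk1 (-0.11 ± 0.13), a kinase that controls cotransporters, and the pump subunit genes Atp1b3 (0.21 ± 0.07) and Atp1b1 (-0.94 ± 0.84). Atp1b1 read 13.19 and 11.26 in BMP3 arrays, so its replicates differed by more than the groups. Chloride and volume-regulated channels had 11 higher and 1 lower of 12 (median 0.22), with Clic1 at 0.31 ± 0.06, Clic4 at 0.12 ± 0.18 and the scramblase gene Ano6 at 0.03 ± 0.23. The KCTD family, which shares a domain with voltage-gated potassium channels without forming pores, had 10 higher and 2 lower of 12 (9 and 3 after cyclic loess; median 0.13). Kctd10, Kctd9 and Kctd2 had 0.22 ± 0.16, 0.00 ± 0.32 and 0.17 ± 0.22. Among sodium and cation channels only Hcn2, of 9 measured, reached 6, at -0.04 ± 0.06, and its sign turned after quantile normalization and median centring. The next brightest, Nalcn and Scn9a, had means of 3.69 and 3.66.

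**Figure D5:**
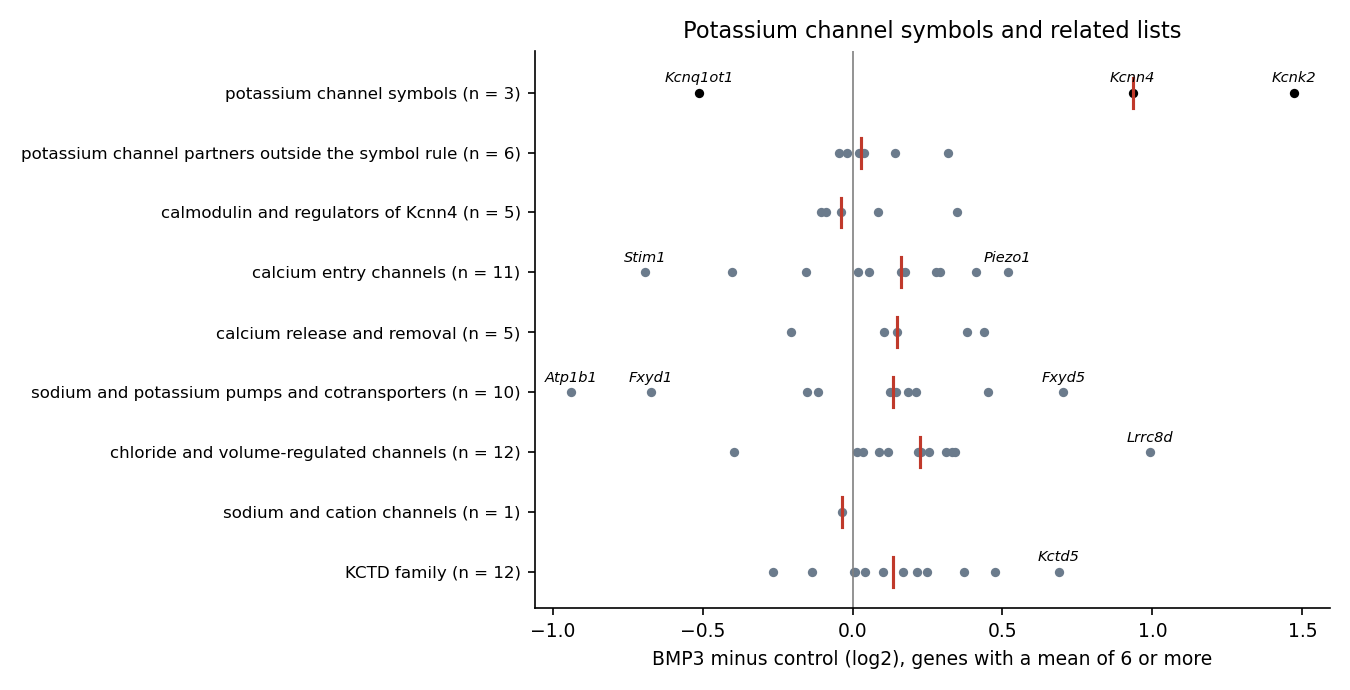
BMP3 minus control difference (log2) of each gene with a mean of 6 or more, for the potassium channel symbols (black, top row) and 8 related lists (grey), with the median of each row as a red tick. Names mark differences of 0.5 or more in either direction and so were chosen after the values were seen; Kcnk2 at 1.47 is the highest point, and the list medians lie between -0.04 and 0.22.

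Each array had 37.7% to 38.6% of probe sets at 6 or more, and over probe sets with such a mean Pearson's r between arrays, across probe sets that are not independent, was 0.978 within BMP3, 0.988 within control and 0.964 to 0.981 between groups. Mesenchymal markers had 9 of 10 genes at 6 or more, with Nt5e under it, and their summed intensity was 18.01 to 18.07 (log2) in BMP3 arrays and 18.01 to 18.06 in control arrays, a sum set mostly by its brightest genes. Of the neuron markers, Map2 and Stmn2 reached 6 and 5 of 7, among them Snap25, Syt1 and Rbfox3, did not. Their sum was 12.22 to 12.27 in BMP3 arrays and 12.30 to 12.36 in control arrays. Skeletal muscle and blood markers had 0 genes at 6, endothelial markers 1 of 5 (Tek), epithelial markers 1 of 4 (Epcam) and smooth muscle markers 2 of 4 (Acta2 and Tagln). Of all markers 4 were past the looser rule. Thy1 (difference 0.73) and Cd44 (0.64), both mesenchymal, were higher, and Map2 (-0.79) and Tek (-2.62) were lower. The other endothelial markers stayed under 3 on every array. Control probe sets differed between the groups as well. The poly-A spike-in Dap averaged 8.99 in BMP3 arrays and 10.12 in control arrays. Phe, Lys and Thr, the other poly-A spike-ins, averaged 6.5, 6.2 and 5.4 in BMP3 arrays, against 7.5, 7.0 and 5.9 in control arrays. For 18S ribosomal RNA the averages were 9.45 in BMP3 arrays and 10.96 in control arrays. Control replicate 1 was the highest array for each of them. Hybridization spike-ins averaged 11.55 in BMP3 arrays and 11.59 in control arrays. The part of these control probe sets' gaps in the differences of Kcnn4, Kcnk2 and Kcnq1ot1 was not tested.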

How the data were processed

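Total RNA was labelled with biotin by a 3' in vitro transcription kit, per the labels' protocols. The authors deposited 1 value for each probe set on each array, read as log2 intensity from its range (0.59 to 16.94), since no source used here states the scale. The submitters' processing notes name Partek, with no version or step. How the background was corrected, the arrays normalized and probes summarised is not given in the sources used here. Groups came from the sample titles. After 64 control probe sets were left out, 45037 were tested, 34945 of them with 1 gene symbol, 932 with several (not named) and 9160 with no gene listed. Among these symbols, 0 differed from RefSeq by Entrez identifier.

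limma 3.58.1 in R 4.3.3 was fitted over all probe sets (lmFit, eBayes, two-sided, Benjamini-Hochberg, no filter on dim probe sets), after it was tested on simulated data. With 2 arrays a group, the number of arrays limits the precision. The members and lists were chosen with earlier results of these data known. Genes named were all symbols at 6 or more, the 4 next, every Kcnn and Kcnm gene, those past the looser rule, and the 3 brightest genes of each list. Motif matches were searched with Python 3.11.15 in RefSeq promoter windows, and the motifs were chosen after the values were seen.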

Additional observations from a re-analysis of the deposited data

How the results depend on the processing

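Across leave-one-out fits, quantile normalization, median centring, cyclic loess, a linear offset of 16, a filter at 6 and an intensity-dependent variance prior, limma called 0 probe sets at an adjusted p of 0.05. With an array left out, 1 group has a lone array that is assumed to vary like the other group. Kcnn4 chose the members, so how often it or Kcnk2 passed the looser rule supports nothing. The Kcnn4 difference was 0.89 to 0.97 with single arrays left out, 1.00 after quantile normalization and 0.57 as the mean of its probe sets, and under that mean 1 symbol, Kcnk2, was past the looser rule. At a fold of at least 2 there was also 1, Kcnk2. Leaving out single arrays gave 2 to 3 symbols higher and 0 to 1 lower, 3 to 5 symbols with a mean of 6 or more, and 329 to 870 probe sets higher and 742 to 1407 lower. A level of 5 gave 6 symbols, 4 of them higher. With the replicate number as a block, 683 probe sets were higher and 1481 lower, and 1 symbol, Kcnc2, was lower. Same-numbered arrays deviated together (r = 0.596 across probe sets), but the labels name no shared day or culture, so the number was not treated as a pairing. The Kcnk2 difference was 1.18 to 1.76 with single arrays left out. Among the other named symbols, Kcnd1, Kcnk3 and the dim Kcnn and Kcnmb symbols turned direction under at least 1 alternative. Kcnq1ot1, Kcnj11, Kcnc2 and Kcnma1 did not, but the sizes moved. As the mean of its probe sets Kcnq1ot1 had a difference of -0.21, and only 2 symbols, both higher, then had a mean of 6 or more. Kcnj11 had 0.23 after quantile normalization. The causes were not tested. Arrays per group, and for 81 symbols low intensity, limit what these data can show.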
